A study of Mus musculus with 46 samples.

Results

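The RNA levels of 10 genes that set, remove or direct methylation of a lysine of histone H3 (H3K9) were followed through the reprogramming of mouse fibroblasts. They were chosen by symbol: 5 methyltransferases, here called writers (Suv39h1, Suv39h2, Setdb1, Ehmt1 and Ehmt2), 4 demethylases, called erasers (Kdm3a, Kdm3b, Kdm4b and Kdm4c), and the corepressor Trim28, so 10 of the 37108 gene symbols listed for the time course. The starting cells were mouse embryonic fibroblasts (MEF) of mid-gestation embryos of either sex, from OG2 males, which carry a green fluorescent reporter of Oct4, and 129S2/SvPasCrl females, and all reprogramming cells received retroviruses for Oct4 together with a form of Nanog. In NanogBiD (NanogN70 in the labels) the stretch of SS18 that binds BRG1, the motor of the BAF remodelling complex, was joined to the N-terminus of Nanog, and NanogWT is Nanog without that domain. Bulk RNA was sequenced on day 0 (D0, after both rounds of infection, so that D0 cells already carry the vectors) and on 7 later days up to D12 (D1, then D3, D5 and D7, then D8, D10 and D12). There were 2 libraries per combination and day, except 1 for NanogBiD on D8, which made 31. Beside them were 2 MEF libraries and 1 library of mouse embryonic stem cells (mES), also from OG2 mice. The medium was changed to the reprogramming medium at D0, once infection was over, and to N2B27 with 2iL after D7. D8 to D12 thus differ from D1 to D7 in medium for both combinations. Changes from D0 also span the first change of medium, whose part was not tested. A second table held 12 induced pluripotent stem cell (iPSC) samples, 6 from each combination, with 2 MEF samples and 1 mES sample. By the paper's methods, mES and iPSC were kept in N2B27 with 2iL and fibroblasts in medium with serum. Comparisons of MEF with mES or iPSC thus differ in medium as well. The iPSC samples carry clone numbers and differ in passage, and NanogWT iPSC1 samples 1 and 1-2 share a clone number, so the 12 samples are not 12 separate clones.

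H3K9 methylation is a mark of silent chromatin that binds HP1 proteins. Suv39h1 and Suv39h2 place the trimethyl mark at pericentromeric heterochromatin, and Setdb1 places it at retroelements and other targets to which KRAB zinc finger proteins bring Trim28 (KAP1), the scaffold that recruits Setdb1. Ehmt1 (GLP) and Ehmt2 (G9a) form a heterodimer that places the mono- and dimethyl marks. Kdm3a and Kdm3b remove the mono- and dimethyl marks, while Kdm4b and Kdm4c remove the trimethyl mark. H3K9 methylation is known as a barrier to the reprogramming of somatic cells. RNA levels are described here, and neither the enzymes nor the mark were measured in these tables.

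Gene spans are those of RefSeq on the mm10 assembly, and strands and exon overlaps are those of GENCODE M21 gene models. Suv39h1 lies on the minus strand at chrX:8061171-8074760 and Suv39h2 on the minus strand at chr2:3455815-3474986. Setdb1 is at chr3:95323525-95357202 and Ehmt1 at chr2:24790769-24919643, both on the minus strand, and Ehmt2 is on the plus strand at chr17:34898463-34914073. The erasers Kdm3a (chr6:71588970-71632990, minus), Kdm4b (chr17:56325970-56403774, plus) and Kdm4c (chr4:74242497-74405864, plus) and the corepressor Trim28 (chr7:13024152-13031032, plus) lie elsewhere. The exons of Suv39h1 overlap an antisense gene, Gm14820, over 767 of 5270 bases, and those of Suv39h2 overlap Dclre1c over 357 of 4410 bases. Whether the counting used strand is not given in the sources used here, so reads in these stretches cannot be told apart.

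The promoters of the 4 members on which the time course turns are shown 5′ to 3′ on the strand of the gene, before the outermost start in either annotation, because these genes moved at different times (RefSeq starts, GRCm38.p6, which has the coordinates of mm10). Capitals mark the GC box, spelled GGGCGG, on either strand. The CCAAT box and the letters ACGTG, the core of a hypoxia response element, are marked the same way, and no marked motifs overlap.
Suv39h1, chrX:8074761-8075010, minus strand: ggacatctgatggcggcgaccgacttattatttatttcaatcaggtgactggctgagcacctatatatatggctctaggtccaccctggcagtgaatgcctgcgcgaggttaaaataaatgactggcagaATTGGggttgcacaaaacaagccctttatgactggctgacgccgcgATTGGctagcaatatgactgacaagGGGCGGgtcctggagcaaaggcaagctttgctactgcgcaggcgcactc
Suv39h2, chr2:3475032-3475236, minus strand: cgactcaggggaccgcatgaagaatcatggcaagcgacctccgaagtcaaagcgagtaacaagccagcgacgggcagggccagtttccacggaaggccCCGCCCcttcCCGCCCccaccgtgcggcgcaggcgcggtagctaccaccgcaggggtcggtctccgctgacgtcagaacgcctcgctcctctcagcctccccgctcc
Kdm3a, chr6:71632991-71633167, minus strand: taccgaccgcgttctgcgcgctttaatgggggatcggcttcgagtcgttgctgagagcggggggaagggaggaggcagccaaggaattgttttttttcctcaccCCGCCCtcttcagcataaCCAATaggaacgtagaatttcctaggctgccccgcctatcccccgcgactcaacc
Trim28, chr7:13023902-13024151, plus strand: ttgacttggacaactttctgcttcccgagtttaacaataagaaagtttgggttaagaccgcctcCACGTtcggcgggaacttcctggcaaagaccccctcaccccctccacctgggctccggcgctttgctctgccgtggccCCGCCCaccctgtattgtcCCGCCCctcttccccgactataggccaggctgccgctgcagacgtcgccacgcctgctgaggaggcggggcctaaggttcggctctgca
The windows of all 4 held a GC box, 1 in Suv39h1 and Kdm3a and 2 in Suv39h2 and Trim28. Over 32851 windows of the 250 bases before a RefSeq start, 32.7% held at least 1 GC box. Suv39h1 held 2 CCAAT boxes and Kdm3a held 1, a motif found in 33.8% of the windows. Trim28 held 1 ACGTG, found in 16.6%. None of the 4 held the E2F-like letters TTTCCCGC (0.895% of the windows) or TTTGGCGC (0.417%), or the octamer ATGCAAAT (1.6%). Only these exact spellings were searched, so the absence does not cover related sites, such as other E2F-like letters. The stretches of Suv39h2 and Kdm3a were 205 and 177 bases, shorter than the 250 of the windows behind the shares. Suv39h1 and Kdm3a have further RefSeq starts downstream, whose windows are not printed. That of Suv39h1 held ACGTG and a GC box, and a further window of Kdm3a held GC boxes.

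The values are FPKM, fragments per length of transcript and per mapped total, so levels of different genes can be compared per length. Column totals ran from 370030 to 464974 FPKM. The smallest steps between values gave the depth of each library relative to the others, from 0.872 to 1.1 over the 20 libraries of D0 to D7, from 0.81 to 1.02 over the 5 NanogBiD libraries of D8 to D12, and from 1.85 to 3.18 over the 6 NanogWT libraries of D8 to D12. On D8 to D12 a difference in depth thus cannot be told apart from a difference between the combinations, whereas the NanogBiD libraries of D0 and D12 were of like depth. Ss18, whose domain NanogBiD carries, was higher in every NanogBiD library (44.0 to 148 FPKM) than in every NanogWT library (24.7 to 40.9) on 8 of 8 days, as the labels give. Summed fibroblast markers (8 genes) fell from 5713–6670 FPKM in MEF to 292–431 with NanogBiD and 2836–3276 with NanogWT at D12, and were at 4.33 in mES. Summed pluripotency markers (8 genes, without Oct4 and Nanog) were at 1202–2171 with NanogBiD and 158–217 with NanogWT at D12, against 3563 in mES and 0.337–1.41 in MEF. Other marker lists moved with NanogBiD too: at D12 epithelial markers (4 genes) summed to 69.9–142 FPKM with NanogBiD, 4.39–13 with NanogWT and 261 in mES, and endothelial markers (3 genes) to 14.1–26.0, 1.73–3.36 and 47.5. With NanogBiD at D12 and in mES, only 1 of the 3 endothelial genes reached a mean of 1 FPKM. Those endothelial sums thus rest mostly on 1 gene and do not show endothelial cells. Macrophage markers (3 genes) summed to at most 14.1 FPKM in any library. Whether such cells were present, and their part in the results, was not tested. In bulk RNA a change in the share of cells of a type and a change in RNA per cell cannot be told apart, and all values below are averages over mixed cells.

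In MEF the corepressor Trim28 was the most abundant of the 10, at 126 and 136 FPKM, followed by Ehmt2 at 38.2 and 41.2. Ehmt1 (11 and 11.9), Setdb1 (10.2 and 10.2), Suv39h1 (9.79 and 10.1) and Kdm3b (8.87 and 10.3) lay near each other, and their ranges touched or nearly so. Lowest were Kdm4b (5.83 and 6.34), Kdm3a (5.53 and 6.28), Kdm4c (4.52 and 4.78) and Suv39h2 (2.16 and 3.03). So the erasers of the trimethyl mark, Kdm3a and the second Suv39 gene began at low levels. The mES library held 543 FPKM of Trim28 and 48.8 of Ehmt2, and its levels of Kdm3a (33.7), Kdm3b (32.1) and Setdb1 (27.0) stood well above those of MEF. Suv39h1 was at 8.47 FPKM in mES, below both MEF libraries.

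**Figure D1:**
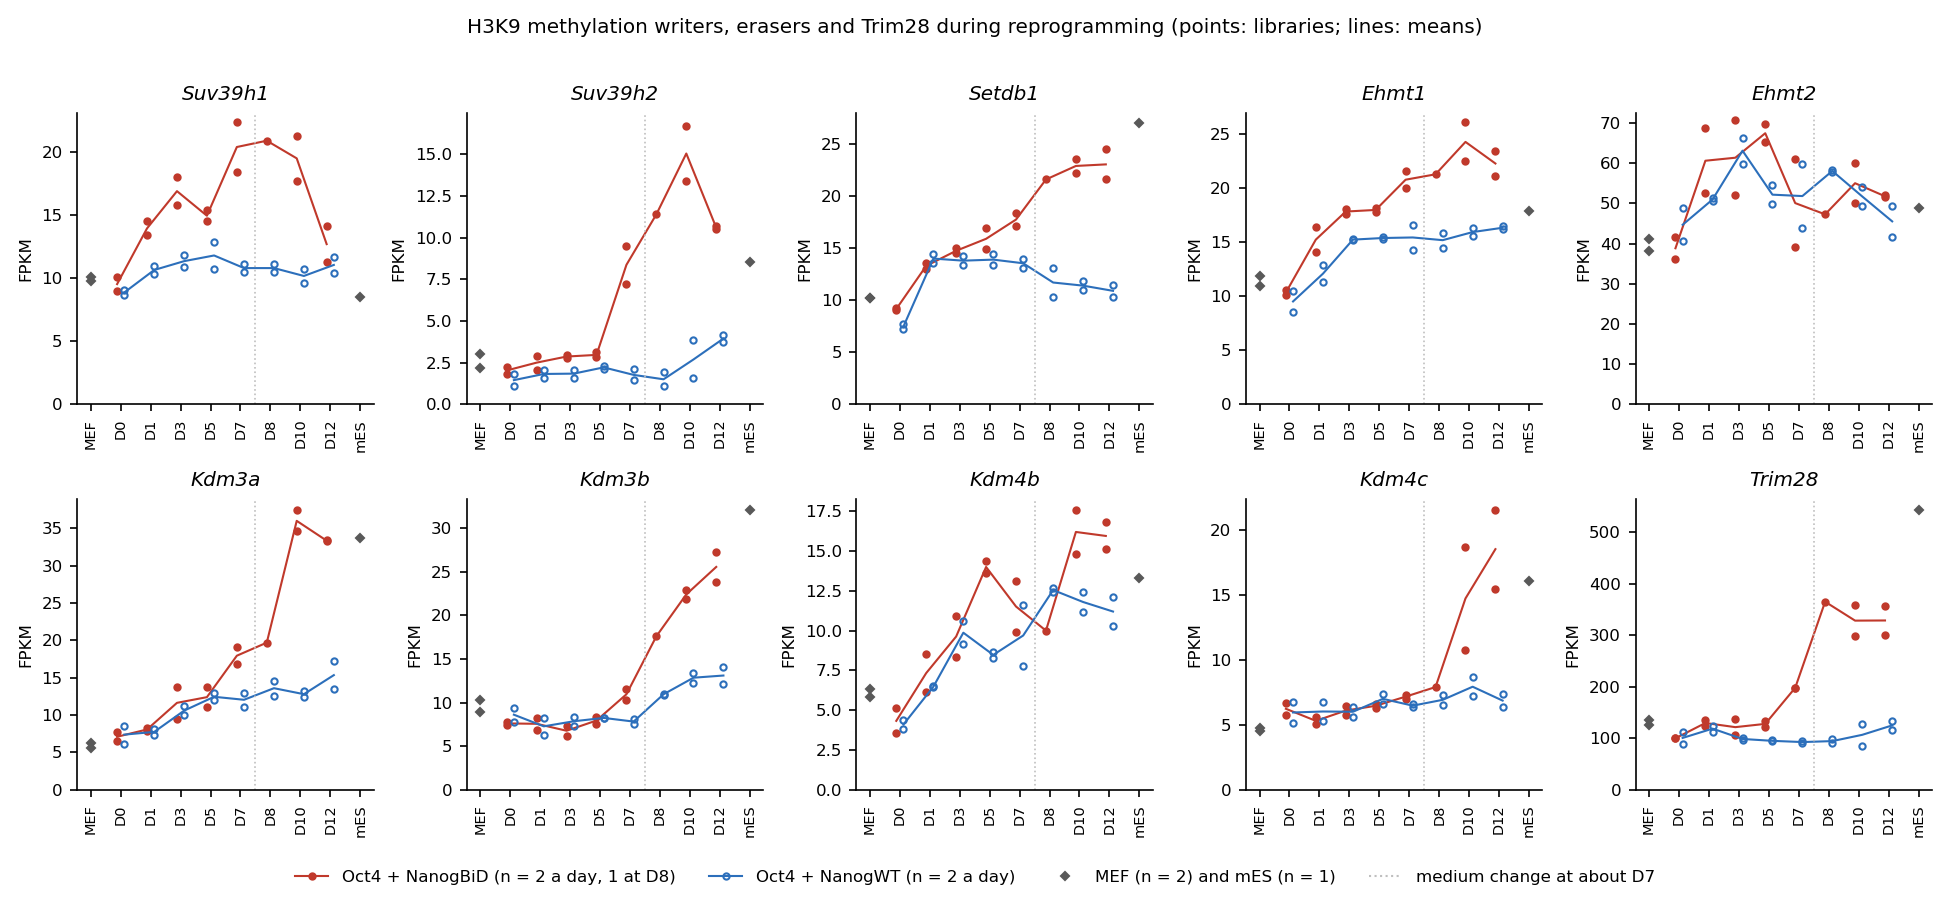
Level of each of the 10 genes (FPKM) by day for NanogBiD and NanogWT, with 1 point per library, lines through the group means and the MEF and mES libraries for reference. Between the combinations Suv39h1 was first called at D3, Suv39h2 and Trim28 at D7 and the eraser Kdm4c at D10, while Ehmt2 was called on no day.

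Suv39h1 was the first member called between the combinations, at D3. With NanogBiD its level was 8.96 and 10.1 FPKM at D0, rising to 13.4 and 14.5 by D1. It was 15.8 and 18 on D3, 14.5 and 15.4 on D5, then 18.4 and 22.4 on D7. The NanogWT libraries held 8.65 and 9.08 at D0, 10.3 and 11 on D1, 10.9 and 11.8 on D3, 10.7 and 12.9 on D5, then 10.5 and 11.1 on D7. From D1 to D7 every NanogBiD library was above every NanogWT library of the same day, and at D0 the lower NanogBiD library lay between the NanogWT libraries. The NanogBiD libraries of Ehmt1 and Suv39h2 likewise stood above from D1 on. Those of Setdb1 stood above at D0, D3 and D5, those of Trim28 at D3 and D5 and those of Ehmt2 at D1 and D5. None of these members passed the test on any day before D7. With 2 libraries a group, libraries can stand apart by chance, and the share of all genes that did so was not counted. At D1 the NanogBiD libraries of Setdb1 instead stood slightly below (log2 difference −0.07). Differences are given throughout on the log2(FPKM + 1) scale, which understates changes of low genes. For Suv39h1 the difference at D1 was 0.36 with a standard error (SE) of 0.14 and did not pass the test (limma, adjusted p = 0.211). It passed at D3 (0.53, SE 0.14, adjusted p = 0.017) but not without the first NanogBiD replicate or without either NanogWT replicate of that day (lowest difference 0.44, highest adjusted p = 0.143). At D5 it did not pass (0.32, SE 0.14, adjusted p = 0.122). At D7 the ratio of mean FPKM was 1.89 (log2 difference 0.86, SE 0.14, adjusted p = 9.86e-05).

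After D7 Suv39h1 returned towards its starting level with NanogBiD. The NanogBiD libraries held 20.9 FPKM at D8, 17.7 and 21.3 at D10 and 11.3 and 14.1 at D12. The NanogWT libraries stayed at 10.5 and 11.1, 9.65 and 10.7, and 10.4 and 11.7 on the same days. At D10 the groups were far apart, with a ratio of 1.92 and an adjusted p of 2.34e-05, and at D12 they overlapped (log2 difference 0.18, SE 0.14, adjusted p = 0.295). Between D10 and D12 with NanogBiD, a comparison added after the values were seen, Suv39h1 fell by 0.59 on the log2 scale (SE 0.14, adjusted p = 0.0168). It was the only one of the 10 members called there, among 3.19% of genes called higher and 0.505% called lower, and the call was lost without NanogBiD D10 replicate 2 or D12 replicate 1 (highest adjusted p = 0.235). Its highest group means in the time course were thus those of NanogBiD on D7, D8 and D10.

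Suv39h2, the paralogue, was called from D7 on, with larger differences. With NanogBiD it was low through D5, at 1.8 and 2.26 FPKM at D0, 2.08 and 2.92 on D1, 2.79 and 2.94 on D3, then 2.81 and 3.12 on D5. It then stood at 7.22 and 9.52 at D7, 11.4 at D8, 13.4 and 16.7 at D10 and 10.5 and 10.7 at D12. With NanogWT the libraries of D0 to D8 held 1.07 to 2.32 FPKM, those of D10 1.55 and 3.83, and those of D12 3.72 and 4.17. From D7 on, no NanogBiD library was as low as any NanogWT library of any day. The ratio of mean FPKM was 4.74 at D7 (log2 difference 1.76, SE 0.25, adjusted p = 2.21e-05), 5.6 at D10 and 2.69 at D12. At these low early levels replicates spread widely (1.07 and 1.93 FPKM for NanogWT D8), and no difference at D0 to D5 passed the test. Suv39h2 at NanogBiD D7 and D12 was above the mES level of 8.54 in 3 of 4 libraries.

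Trim28 was level between the combinations at D0, with 100 and 100.1 FPKM for NanogBiD and 88.3 and 113 for NanogWT. NanogBiD libraries held 124 and 135 on D1, 106 and 137 on D3, 122 and 134 on D5, then 197 and 199 on D7, 365 on D8, 298 and 359 on D10, then 301 and 356 on D12. NanogWT libraries held 85.5 to 134 FPKM on all days, with 90.1 and 95.3 at D7 and 116 and 134 at D12. The largest step with NanogBiD thus lay between D5 and D8, and the groups did not overlap from D3 on. At D7 the ratio was 2.14 (log2 difference 1.09, SE 0.17, adjusted p = 7.97e-05), at D10 3.08 (adjusted p = 1.66e-07) and at D12 2.63 (adjusted p = 1.57e-06). The D12 level with NanogBiD was still below the 543 FPKM of mES, and the NanogWT level at D12 was that of MEF.

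Setdb1, which Trim28 recruits, was higher from D1 on with both combinations and differed between them late. Levels went from 9.07 and 9.24 FPKM at D0 to 13 and 13.6 at D1 with NanogBiD, and from 7.25 and 7.7 to 13.6 and 14.4 with NanogWT. From D1 to D5 the NanogBiD libraries (13 to 16.9) and the NanogWT libraries (13.4 to 14.4) were close. From D7 on the levels lay further apart: NanogBiD held 17.1 and 18.4 at D7, 21.6 at D8, 22.2 and 23.6 at D10 and 21.6 and 24.5 at D12, while NanogWT held 13.1 and 14.0, 10.3 and 13.1, 11 and 11.8, and 10.3 and 11.5. At D12 the ratio was 2.11 (log2 difference 1.01, SE 0.12, adjusted p = 7.06e-07). The smaller difference at D7 (0.37, SE 0.12, adjusted p = 0.0238) was lost when 1 of 3 libraries was left out (without the first NanogBiD replicate or either NanogWT replicate of D7) and under 2 other scalings, with a highest adjusted p of 0.146.

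Ehmt1 and Ehmt2, whose products work as a dimer, did not move alike. Ehmt1 went from 10.1 and 10.6 FPKM at D0 to 21.1 and 23.5 at D12 with NanogBiD, and from 8.55 and 10.5 to 16.2 and 16.5 with NanogWT. It was higher with NanogBiD at D7 (0.41, SE 0.12, adjusted p = 0.0159), D10 (0.57, adjusted p = 0.000467) and D12 (0.42, adjusted p = 0.00673), by 1.34, 1.52 and 1.36 times in mean FPKM. The D7 call was lost without the first NanogBiD or the second NanogWT replicate, and that of D12 without the second NanogBiD replicate (highest adjusted p = 0.155 and 0.0646). Ehmt2 lay between 36.1 and 70.8 FPKM in all NanogBiD libraries and between 40.6 and 66.4 in all NanogWT libraries. It passed the test in none of the comparisons between combinations, with differences from −0.2 to 0.37, and libraries of the same day differed by as much as 61.1 and 39.1 FPKM (NanogBiD D7). Its range of group means over the time course, MEF and mES, 0.78 on the log2 scale, was the smallest of the 10, against 2.72 for Suv39h2.

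Among the erasers, Kdm3a moved most. With NanogBiD it was at 6.47 and 7.73 FPKM at D0, 7.93 and 8.22 on D1, 9.48 and 13.8 on D3, 11.1 and 13.7 on D5, then 16.8 and 19.1 on D7, 19.7 on D8, 34.6 and 37.4 on D10, then 33.3 and 33.4 on D12. With NanogWT it was at 6.18 and 8.59 at D0, 7.38 and 8.12 on D1, 10.0 and 11.2 on D3, 12.0 and 12.9 on D5, then 11.1 and 13 on D7, 12.6 and 14.6 on D8, 12.4 and 13.2 on D10, then 13.5 and 17.2 on D12. Up to D5 the libraries of both combinations overlapped on every day, and from D7 on the NanogBiD libraries stood above. The difference was 0.54 at D7 (SE 0.17, adjusted p = 0.0233, ratio 1.49), 1.42 at D10 (adjusted p = 1.01e-06, ratio 2.81) and 1.08 at D12 (adjusted p = 3.23e-05, ratio 2.17). The D7 call was lost without NanogBiD D7 replicate 2 or NanogWT D7 replicate 1 (highest adjusted p = 0.173), and those of D10 and D12 held with each library left out.

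Kdm3b, its paralogue, is on the plus strand at chr18:34777008-34839370, and its exons overlap those of Gm26538 over 3468 of 14095 bases. It changed late. It lay between 6.21 and 8.35 FPKM in the NanogBiD libraries of D0 to D5, at 10.3 and 11.6 at D7, 17.6 at D8, 21.9 and 22.9 at D10 and 23.8 and 27.3 at D12. NanogWT libraries held 6.31 to 9.4 up to D7, 10.9 and 11 at D8, 12.3 and 13.4 at D10 and 12.1 and 14.1 at D12. Both combinations were therefore above their own earlier levels once the medium had changed after D7. At D10 and D12 the NanogBiD libraries were 1.75 and 1.95 times as high (limma, adjusted p = 0.000125 and 2.02e-05). The D7 difference of 0.44 (SE 0.14, adjusted p = 0.0231) was lost without the first NanogBiD replicate or either NanogWT replicate of that day (highest adjusted p = 0.141).

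Kdm4c was first called at D10. Its libraries held 5.04 to 7.34 FPKM with NanogBiD and 5.13 to 7.41 with NanogWT on D0 to D7, and 7.92 against 6.55 and 7.32 at D8. NanogBiD then held 10.8 and 18.7 at D10 and 15.5 and 21.6 at D12, with NanogWT at 7.23 and 8.66 and at 6.37 and 7.38. At D12 the ratio of mean FPKM was 2.7 (log2 difference 1.3, SE 0.20, adjusted p = 2.16e-05), which with 2.69 for Suv39h2 and 2.63 for Trim28 was among the 3 largest. The D10 difference (0.77, SE 0.20, adjusted p = 0.00284) was lost without the first NanogBiD replicate of that day (lowest difference 0.40, adjusted p = 0.112). Kdm4b, the other trimethyl eraser, instead rose from the start with both combinations. It went from 3.55 and 5.11 FPKM at D0 to 8.36 and 10.9 at D3 and 15.1 and 16.8 at D12 with NanogBiD, and from 3.8 and 4.41 to 9.14 and 10.6 and then 10.3 and 12.1 with NanogWT. Its D5 difference (13.6 and 14.4 against 8.31 and 8.64 FPKM, adjusted p = 0.0214) and its D12 difference (adjusted p = 0.0439) were lost whichever library of the day was left out, with highest adjusted p of 0.125 and 0.226.

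**Figure D2:**
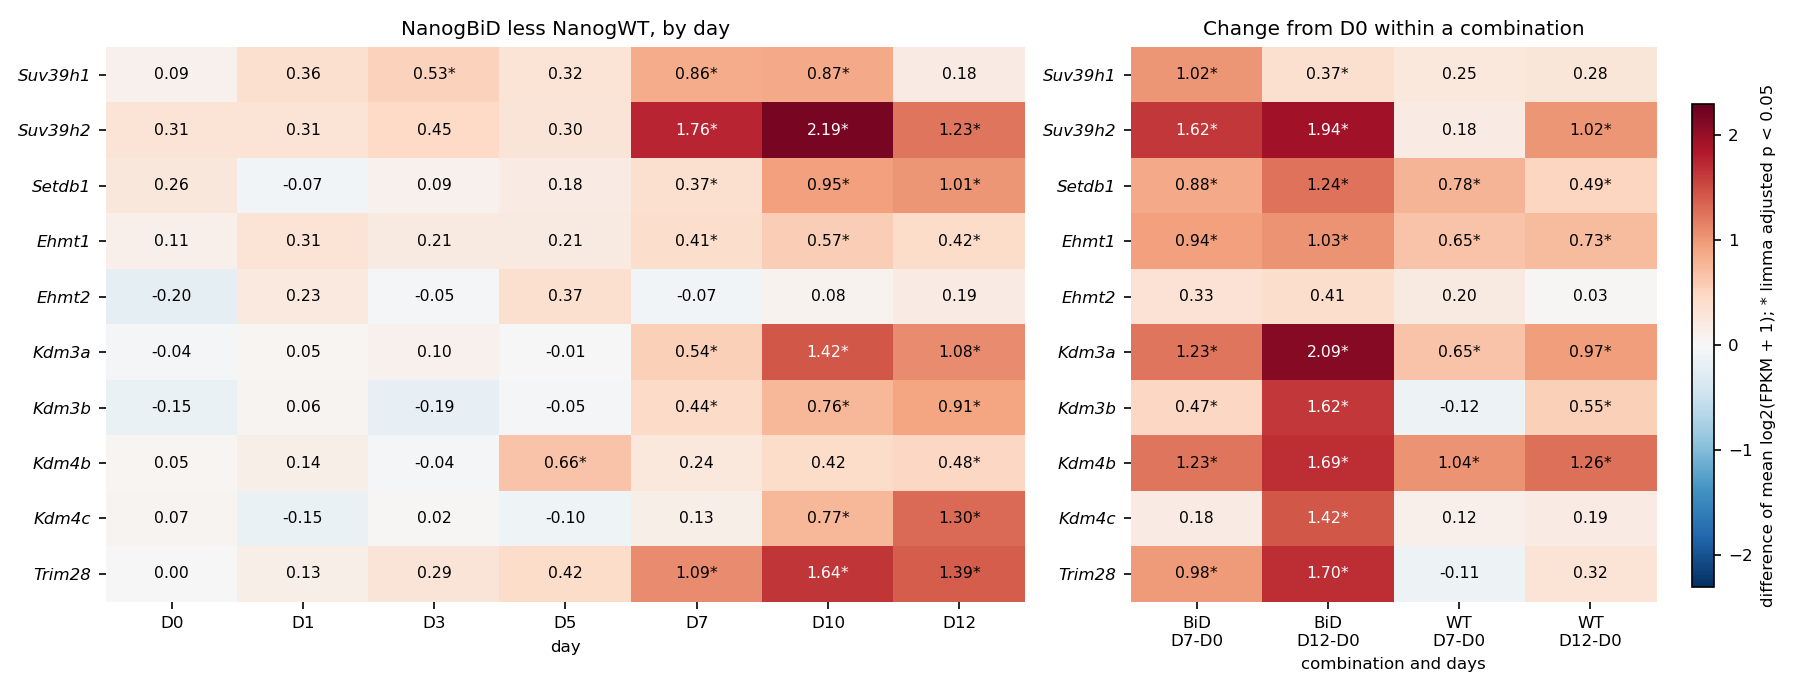
Heat map of the differences of mean log2(FPKM + 1) for the 10 genes (rows), with NanogBiD less NanogWT by day on the left and the change from D0 within each combination on the right. Each cell prints its value, red is higher and blue lower, and an asterisk marks a limma adjusted p under 0.05: none at D0 and D1, 7 at D7 and 8 at D10 and D12.

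Counted by day, the members called between combinations went from none to most. At D0 and D1 none was called, where 1.24% and 1.25% of all 16842 genes tested were higher with NanogBiD and 0.671% and 2.02% lower. An unadjusted p under 0.05 was reached by 1 and 2 of the 10, beside 2668 and 2266 of all genes. At D3 it was 1 (Suv39h1), with 4.25% of all genes higher and 5.9% lower, and at D5 it was 1 (Kdm4b), with 9.05% higher and 7.31% lower. At D7 there were 7 of 10 higher, against 17.3% of all genes, and none lower, against 11.1%. At D10 there were 8 of 10 higher against 32.4%, none lower against 23.1%, and at D12 again 8 higher against 31.6% and none lower against 19.1%. The members called at D7 were all but Ehmt2, Kdm4b and Kdm4c, those at D10 all but Ehmt2 and Kdm4b, and those at D12 all but Suv39h1 and Ehmt2. The median difference over the 10 was 0.42 at D7, 0.82 at D10 and 0.96 at D12, beside 0.08, 0.10 and 0.17 over all genes. No comparison between the combinations had a member called lower with NanogBiD.

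Over D3, D5 and D7 together, days of like depth and medium, 6 of 10 members were higher and none lower, against 23.9% and 14.8% of all genes. They were Suv39h2 (0.84, SE 0.14, adjusted p = 0.000103), Trim28 (0.60, SE 0.10), Suv39h1 (0.57, SE 0.08, adjusted p = 1.14e-05), Kdm4b (0.29), Ehmt1 (0.28) and Setdb1 (0.21). The calls of Suv39h1, Suv39h2 and Trim28 held with each of the 12 libraries left out and under every other setting tried but a fold limit of 2, under which no member was called, that of Kdm4b was lost in 8 of the 12, and that of Setdb1 in 2 of the 12 (without the second NanogBiD or the first NanogWT replicate of D5). Kdm3a (0.21, adjusted p = 0.103), Kdm3b (0.07) and Kdm4c (0.02) did not pass. Of the 5 writers 4 were thus called over these days, and of the 4 erasers 1. Setdb1, called, and Kdm3a, not called, had the same difference of 0.21, and writers were not tested against erasers.

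Within NanogBiD, 8 members were higher at D7 than at D0 and none lower, beside 31.2% and 12.6% of all genes. At D12, 9 were higher than at D0 and none lower, beside 42.8% and 18.9%. The call of Kdm3b at D7 was lost without NanogBiD D0 replicate 2 or D7 replicate 1, and its change was 0.09 once a trend over GC content and length was removed. The largest changes to D12 were those of Kdm3a (2.09, SE 0.17, ratio 4.69), Suv39h2 (1.94, SE 0.25, ratio 5.22), Trim28 (1.70, SE 0.17, ratio 3.29) and Kdm4b (1.69, SE 0.19, ratio 3.69). Ehmt2 did not pass (0.41, adjusted p = 0.0796). That of Suv39h1, 0.37 (adjusted p = 0.0239), was lost without the second NanogBiD replicate of either day (highest adjusted p = 0.247) and was −0.03 with that trend removed. Within NanogWT, 4 members were higher at D7 (Setdb1, Ehmt1, Kdm3a and Kdm4b) and none lower, beside 25.5% and 13.2% of all genes. At D12, 6 were higher (the same 4 with Suv39h2 and Kdm3b) and none lower, beside 27.4% and 10.7%. With the trend over GC content and length removed, the NanogWT changes to D12 of Setdb1 and Kdm3b were 0.06 and 0.03, and that of Kdm3b was also lost without the second NanogWT replicate of D12. These comparisons across days depend on the scale: of all genes called, the share that rose was 71.2% and 69.3% with NanogBiD to D7 and D12, and 50.1% and 50.5% after quantile normalization, and with NanogWT it went from 65.9% and 71.9% to 47.9% and 46.5%. The median over all genes moved by up to −0.36 with that scaling, beside a median of 1.52 over the 10 members for NanogBiD from D0 to D12 and 0.34 over all genes. The 8 members other than Suv39h1 and Ehmt2 were called higher at D12 with NanogBiD under every setting tried, with changes of at least 0.57.

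The test of the difference between these changes compared each combination with its own D0. For the change from D0 to D7, it was passed by Suv39h2 (1.44, SE 0.35, adjusted p = 0.00719), Trim28 (1.09, SE 0.24, adjusted p = 0.00415), Suv39h1 (0.77, SE 0.19, adjusted p = 0.0103) and Kdm3b (0.59, SE 0.20, adjusted p = 0.0469), so 4 of 10 beside 8.27% of all genes, and by none in the other direction beside 7.67%. The call of Kdm3b was lost without any 1 of 6 of the 8 libraries, and that of Suv39h1 without the second NanogBiD replicate of D0 or of D7 (highest adjusted p = 0.151 and 0.0517). For the change from D0 to D12, it was passed by Trim28 (1.38, SE 0.24), Kdm4c (1.23, SE 0.28), Kdm3a (1.12, SE 0.24), Kdm3b (1.07, SE 0.20), Suv39h2 (0.92, SE 0.35) and Setdb1 (0.75, SE 0.17), with 6 of 10 larger beside 21.9% of all genes and none smaller beside 15.2%. The call of Suv39h2 was lost without any 1 of 7 of the 8 libraries, with a highest adjusted p of 0.15. Of the 4 erasers 3 were thus called for the change to D12, and 1 for that to D7, beside 21.9% and 8.27% of all genes. Of the writers, Setdb1 and Suv39h2 were called for the change to D12, and Suv39h1 and Suv39h2 for that to D7.

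Members differed in how far they had moved from MEF towards mES. The place of a group between the MEF mean (0%) and the mES library (100%) was taken on the log2(FPKM + 1) scale for the 7 members with mES at least 1 above MEF. At D12 the NanogBiD mean stood at 99.4% for Kdm3a, 111% for Kdm4c, 120% for Suv39h2, 125% for Kdm4b, 83.3% for Setdb1, 80.6% for Kdm3b and 64.5% for Trim28. The NanogWT mean stood at 53.1%, 29.9%, 33.0%, 77.6%, 6.93%, 25.2% and −3.3% in the same order. NanogBiD was thus further on for all 7, with Trim28 the furthest from mES. At D7 with NanogBiD, Suv39h2 was at 97.4% and Kdm4b at 80.1%, while Kdm3b was at 11.1%, Trim28 at 29.1% and Kdm4c at 33.5%. As mES is 1 library, these places have no error of their own.

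**Figure D3:**
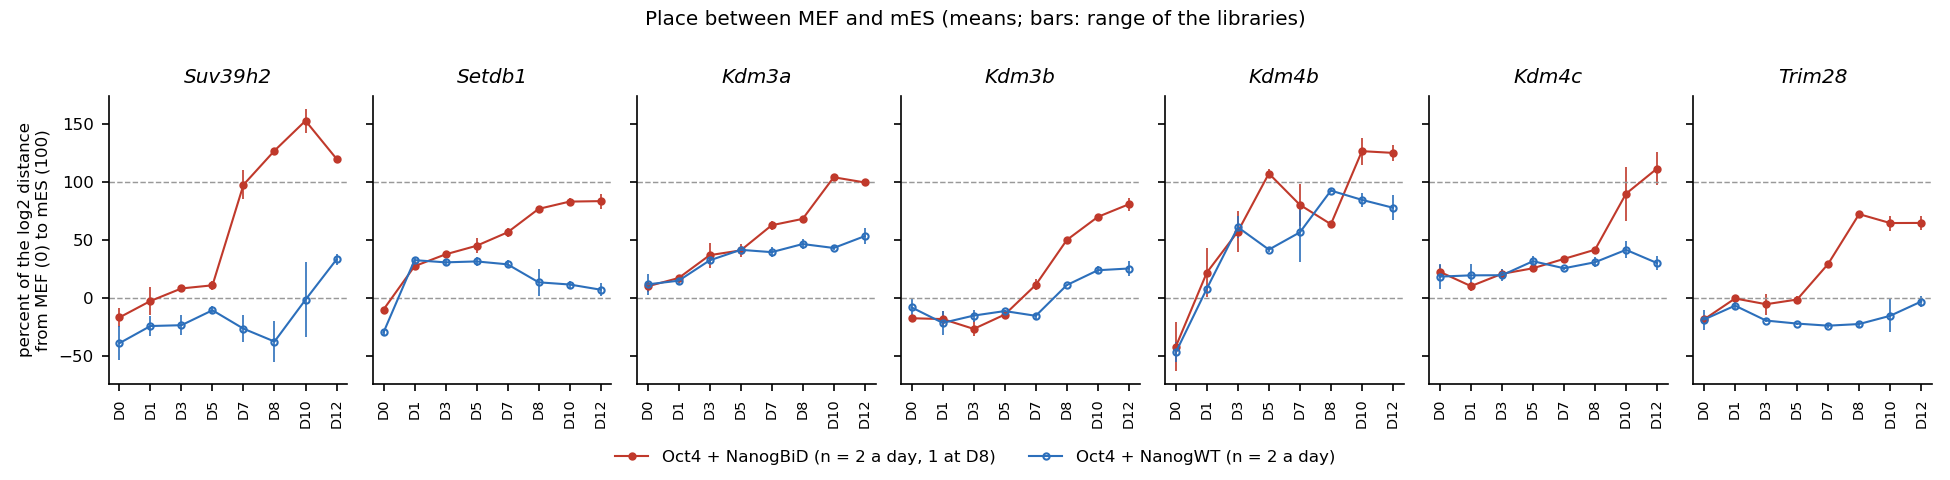
Place of each NanogBiD and NanogWT group between MEF (0%) and mES (100%) on the log2(FPKM + 1) scale, by day, for the 7 genes with a mES level at least 1 above MEF. Points are means and bars the range of the libraries. At D12 the NanogBiD means of Kdm3a, Kdm4c, Suv39h2 and Kdm4b lay at 99.4% to 125% and that of Trim28 at 64.5%.

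The summed FPKM of the 4 erasers was set against that of the writers. Ehmt2 was left out of the writers because its level depends on the table, as given with the iPSC results. The ratio, chosen after the values were seen and given without a test, was 0.805 and 0.729 in MEF and 0.81 and 0.818 at D0 with NanogBiD. At D7 and D8 it was 0.677, 0.739 and 0.735, and it then went to 0.95 and 1.25 at D10 and 1.28 and 1.45 at D12, near the 1.54 of mES. With NanogWT it was 0.921 and 0.981 at D0, 0.854 and 0.88 at D7, 1.05 and 1.2 at D8 and 1.08 and 1.13 at D12. The ratio thus passed 1 at D8 with NanogWT and at D10, in 1 of 2 libraries, with NanogBiD. With Ehmt2 among the writers the ratio did not reach 1 in any of these libraries: it was 0.347 and 0.378 with NanogBiD at D0, 0.734 and 0.819 at D12, 0.487 and 0.576 with NanogWT at D12 and 0.858 in mES. The passing of 1 thus rests on leaving out Ehmt2. The eraser sum itself was 89.5 and 97.4 FPKM with NanogBiD at D12 against 44.1 and 49.0 with NanogWT, and the writer sum 67.4 and 69.8 against 40.9 and 43.6.

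**Figure D4:**
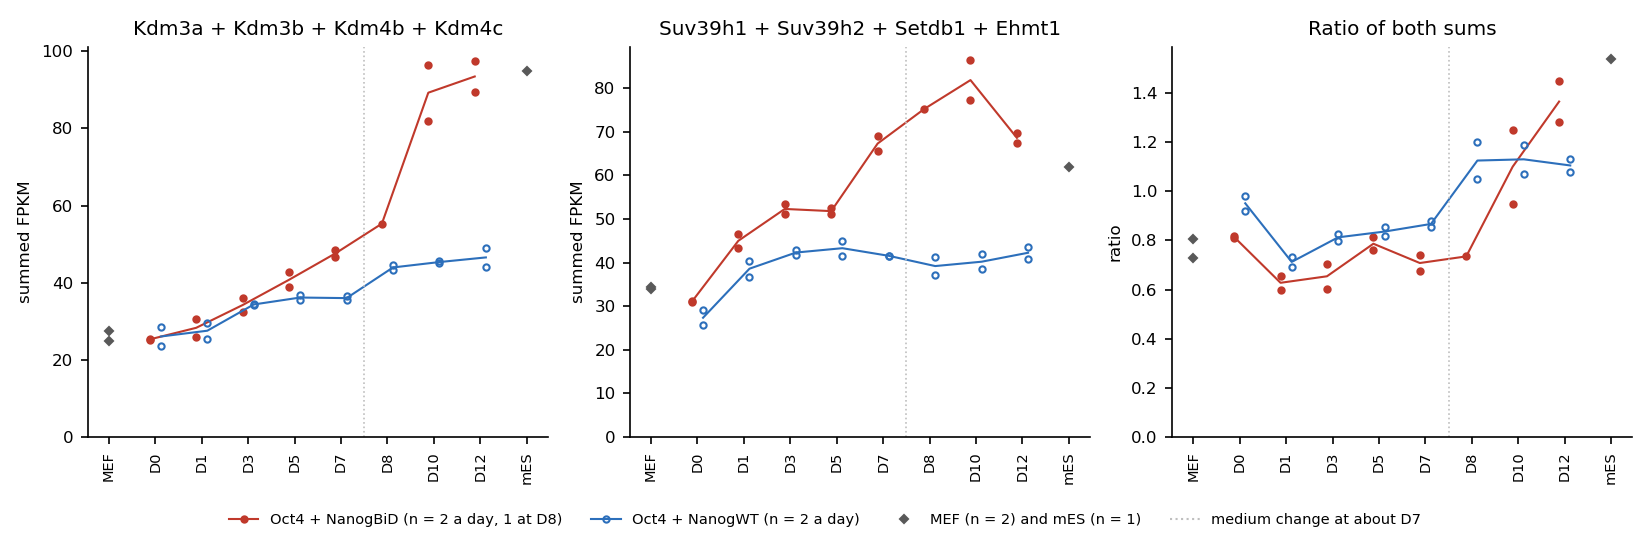
Summed FPKM of the 4 erasers (left) and of the 4 writers other than Ehmt2 (middle) and the ratio of erasers to writers (right) by day, with 1 point per library, lines through the means, and MEF and mES at the ends. With NanogBiD the ratio was below 1 up to D8 and at 1.28 and 1.45 at D12.

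Markers of cell division moved with several members. The summed FPKM of 10 proliferation genes (among them Mki67, Top2a and Pcna) was 222 and 278 at D0 with NanogBiD, 212 and 228 at D5, 408 and 447 at D7, 753 at D8, 786 and 831 at D10 and 602 and 676 at D12, and it stayed between 133 and 234 with NanogWT. Between the combinations 9 of these 10 genes were called higher at D7 and all 10 at D10 and D12, beside 17.3%, 32.4% and 31.6% of all genes, with median differences of 1.33, 2.29 and 1.64 beside 0.08, 0.10 and 0.17. Over the 31 libraries, Pearson's r with the mean log2 level of the proliferation genes was 0.95 for Trim28, 0.91 for Suv39h2, 0.72 for Kdm3b, 0.68 for Setdb1 and Kdm3a, 0.66 for Kdm4c, 0.64 for Suv39h1, 0.56 for Ehmt1, 0.31 for Kdm4b and −0.12 for Ehmt2. These are descriptions, since libraries share combination, day, medium and depth. The part of proliferation in the differences of the members was not tested. On D1 the proliferation sums were 263 and 285 with NanogBiD and 195 and 206 with NanogWT. On D3 they were 172 and 229 against 158 and 191. An unadjusted p under 0.05 was reached by 4 of the 10 genes on D1, beside 2266 of all 16842 genes tested. On D3 it was reached by 1 of the 10, beside 3847 of all genes. None of the 10 was called on either day.

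For the 3 members with the largest range, the genes with the most similar course over the 34 libraries of the time-course table were listed by Pearson's r of log2(FPKM + 1) over 16772 genes. Those of Trim28 were Rfc5, a replication factor subunit (0.983), Mcm3, a subunit of the replicative helicase (0.979), and G3bp1, a stress granule protein (0.979). Among those of Suv39h2 were Cdca7 (0.961) and Supt16, a subunit of the FACT histone chaperone (0.957). Those of Kdm3a were Nup210, a nuclear pore protein (0.963), Dcaf17 (0.952) and Jarid2, a partner of Polycomb repressive complex 2 (0.952).

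The wider H3K9 machinery, 26 further genes of which 25 were tested, was described by its counts and medians. With NanogBiD against NanogWT, 10 were higher and none lower over D3, D5 and D7 (median 0.24, as for the 10 members), beside 23.9% and 14.8% of all genes. At D12, 14 were higher and 1 lower (median 0.61), beside 31.6% and 19.1%. Over D3 to D7 the largest differences were those of the HP1 protein Cbx1 (26.0 against 14.1 FPKM, 0.77, adjusted p = 5.79e-07), the imprint-protecting KRAB zinc finger protein Zfp57 (10.8 against 5.97, 0.77), Uhrf1, which reads H3K9 methylation and recruits Dnmt1 (28.3 against 15.2, 0.77), and the HUSH subunit Mphosph8 (17.8 against 13.6, 0.37). The same 4 led at D12, with 1.79 for Zfp57, 1.76 for Uhrf1, 1.3 for Mphosph8 and 1.28 for Cbx1. From D0 to D12 with NanogBiD, 19 rose and 1 fell (median 0.84), beside 42.8% and 18.9% of all genes, led by Wiz, a partner of the Ehmt1 and Ehmt2 dimer, from 4.21 and 4.34 to 19.4 and 24.8 FPKM (2.12, adjusted p = 2.44e-08). Uhrf1 (2.06), Cbx1 (1.98) and Zfp57 (1.87) followed.

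In iPSC, transcripts were summed by gene symbol and 13312 genes tested. Suv39h1 lay between 5.01 and 14.6 FPKM over the 12 iPSC samples, at 10.1 and 10.8 in MEF and at 8.6 in mES, so the iPSC overlapped MEF (−0.29, SE 0.29, adjusted p = 0.376). Suv39h2 lay between 6.22 and 10.4, all above the 1.81 and 2.55 of MEF (1.57, SE 0.17, ratio 3.84, adjusted p = 3.98e-06). The Suv39 paralogues thus ended differently: Suv39h2 lay above MEF, while Suv39h1 overlapped MEF and was not called, which does not show equal levels. The iPSC samples highest in Suv39h1 (10.3, 10.5, 11.3 and 14.6 FPKM) had summed fibroblast markers of 1379, 430, 118.5 and 33.4 FPKM. Samples with sums of 43.7 and 149.7 held 5.94 and 7.8 of Suv39h1. Those with sums of at most 6.49 held 5.01 to 9.85. The part of remaining fibroblast RNA was not tested. Trim28 was between 638 and 1041 FPKM against 127 and 131 in MEF (2.70, SE 0.15, ratio 6.61) and 515 in mES, so each iPSC sample was above the mES library. Kdm3a was between 28.3 and 51.5 against 7.12 and 7.16 (2.29, SE 0.13), Kdm3b between 26.0 and 40.7 against 9.11 and 10.3 (1.68, SE 0.14) and Setdb1 between 22.0 and 37.5 against 10.3 and 10.6 (1.42, SE 0.13). All 3 had separate ranges, with ratios of 5.41, 3.45 and 2.85. Kdm4c was between 11 and 18.1 against 5.54 and 5.95 (1.14), Kdm4b between 8.95 and 16.5 against 6.57 and 6.77 (0.63) and Ehmt1 between 14.7 and 21.4 against 13.1 and 13.4 (0.33). Ehmt2 was between 14.8 and 25 against 19.0 and 20.2 and did not pass (0.05, adjusted p = 0.781).

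So 8 of 10 members were higher in iPSC than in MEF and none lower, beside 41.2% and 30.2% of all genes, with a median of 1.28 beside 0.22 over all genes. The calls of Kdm4b and Ehmt1 were lost without either MEF sample (highest adjusted p = 0.0691 and 0.123) and when FPKM were rescaled to TPM, with differences of 0.45 and 0.12 (adjusted p = 0.0535 and 0.413). That of Ehmt1 was also lost with quantile normalization (0.24). The sum of the fibroblast markers was 1379 FPKM in NanogBiD iPSC1 replicate 9, 430 in NanogWT iPSC1 replicate 3 and 1.24 to 149.7 in the other 10, against 6407 and 7277 in MEF. All 8 calls held with each of the 12 iPSC samples left out in turn. Of the wider list, 16 of 24 were higher and 3 lower, beside the same 41.2% and 30.2%, led by Uhrf1 (163 against 19.7 FPKM, 2.99), Zfp57 (2.01), the remodeller Smarcad1 (1.95) and the demethylase Phf2, which fell (3.97 against 15.1 FPKM, −1.74). The erasers per writers ratio was 1.32 to 1.7 in the iPSC, 0.777 and 0.833 in MEF and 1.61 in mES of this table.

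**Figure D5:**
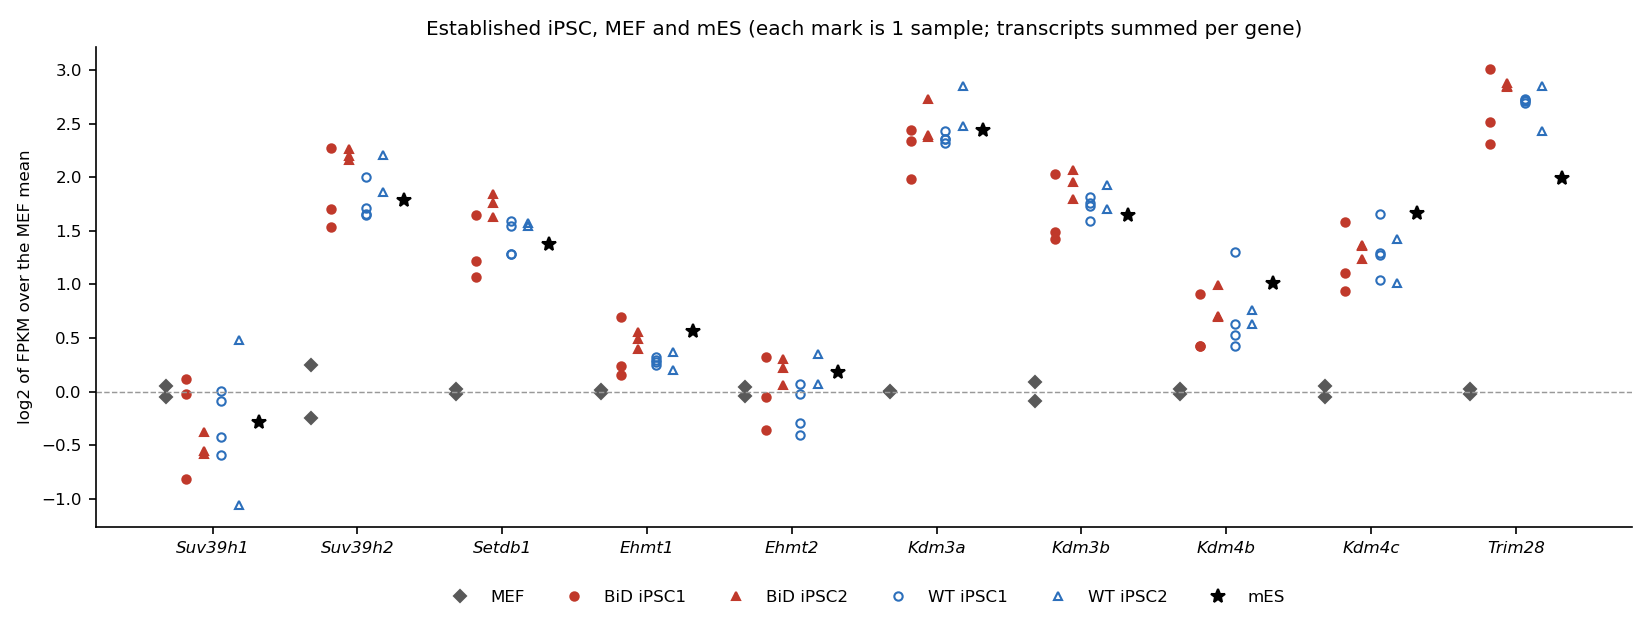
Level of each of the 10 genes in MEF, NanogBiD iPSC, NanogWT iPSC and mES, as log2 of FPKM over the MEF mean, with 1 mark per sample and lines iPSC1 and iPSC2 drawn as circles and triangles. For 8 genes all 12 iPSC lie above both MEF samples, while Suv39h1 and Ehmt2 overlap MEF.

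Between NanogBiD and NanogWT iPSC the members overlapped. No member and no gene was called (0% higher and 0% lower of 13312 genes by limma, with 227 at an unadjusted p under 0.05 and none of them a member), and the differences of the 10 lay between −0.13 (Kdm3a, SE 0.10) and 0.13 (Ehmt1, SE 0.09). The medians were 7.58 and 8.83 FPKM for Suv39h1, 9.76 and 7.44 for Suv39h2, 929 and 848 for Trim28 and 37.3 and 37.5 for Kdm3a with NanogBiD and NanogWT. A p that misses the threshold does not show that the iPSC are alike, and the SE of 0.09 to 0.22 set what could be seen.

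The 2 tables gave like levels for 9 of the 10 members in the cells that both hold, with ratios of the gene table to the summed transcripts of 0.771 to 1.2. Ehmt2 differed, with 38.2, 41.2 and 48.8 FPKM in the gene table and 20.2, 19.0 and 22.2 in the summed transcripts for both MEF and the mES libraries, a ratio of 1.89 to 2.2. Over 7440 genes with at least 5 FPKM in both, the median ratio in the first MEF library was 0.957, and 4.35% of genes were above 1.5. Levels of Ehmt2 are therefore read only within a table. The split of a member into transcripts was not steady between the MEF samples: the main transcript of Ehmt1 held 12.6% of its FPKM in one and 75.5% in the other, that of Kdm4c 25.8% and 100%. No shift in transcript use was read from these shares. Kdm3b and Trim28 have 1 transcript each in the table.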

How the data were processed

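The authors trimmed reads with Trim Galore 0.6.4, aligned them to mm10 with HISAT2 2.2.1 and quantified them with StringTie 2.2.1, per the submitters' processing notes, and deposited FPKM, by gene symbol for the time course and by transcript for the iPSC. The annotation and strand setting are not given in the sources used here. FPKM are not counts, so no count model was used. Transcripts were summed by symbol (106520 to 35976). The filter kept genes that reached 1 FPKM in 2 or more libraries. On log2(FPKM + 1), limma 3.58.1 (R 4.3.3, eBayes with a trend, 1 mean per group) was fitted to the 31 time-course libraries or to the 12 iPSC and 2 MEF samples. Called means an adjusted p (Benjamini-Hochberg, over all genes tested) under 0.05, with no fold limit. The mES library and the D8 libraries of both combinations entered no tested comparison. The steps were tested on simulated data. All 10 members were named, with the 4 largest called changes of a wider H3K9 list in 4 comparisons. One gene similar in course to a member is not reported here. The members and lists were chosen with earlier results of these data known. The sources do not say whether replicates came from separate cultures, so p-values measure the spread between these libraries. Alternatives were the pseudocount, the filter, the fold limit, the scaling, the libraries fitted, a replicate block and leaving out each library; removing a trend over GC content and length (91.6% of genes had both) and the comparison of D12 with D10 were added after the data were seen.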

Additional observations from a re-analysis of the deposited data

Results flagged for a closer look

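In 30 groups of 4 or 6 iPSC values, the highest or lowest sample was compared with the spread of its group, a test that chance meets in a small share of groups. It picked out Kdm3a in NanogWT iPSC2 replicate 5, at 51.5 FPKM with the next of the 6 NanogWT iPSC at 39.7. It also picked out Kdm4b in NanogWT iPSC1 replicate 2, at 16.5 FPKM with the next at 11.3. Within the 4 samples of NanogWT iPSC1 alone that Kdm4b value was not picked out.

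The change from D0 differed between NanogBiD and NanogWT in the interaction test, with each value the NanogBiD change less the NanogWT change on the log2 scale. For D0 to D7 it was 0.77 for Suv39h1, 1.44 for Suv39h2, 0.59 for Kdm3b and 1.09 for Trim28. For D0 to D12 it was 0.92 for Suv39h2, 0.75 for Setdb1, 1.12 for Kdm3a, 1.07 for Kdm3b, 1.23 for Kdm4c and 1.38 for Trim28. The relative depth over D8 to D12 was 1.85 to 3.18 for NanogWT and 0.81 to 1.02 for NanogBiD, and its part in the D12 values was not tested.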

How the results depend on the processing

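Of 77 calls of members, 47 held under every alternative other than the fold limit, and 1 reversed: the change of Suv39h1 from D0 to D12 with NanogBiD was −0.03 with the GC and length trend removed. Calls kept were 74 of 77 with a pseudocount of 0.1, 74 without the filter, 63 with TPM, 63 with quantile normalization, 64 of 69 with that trend removed, 44 of 69 with only the groups compared and 56 of 77 with any library left out. The replicate block kept 69 of 69 (correlations of like-numbered libraries were −0.0647 to 0.395, so the numbers were not taken as pairs); it added Kdm4b at D10, Kdm3a over D3 to D7 and Ehmt2 from D0 to D12 with NanogBiD. With a fold limit of 2, members called between combinations were 0 at D3, 0 at D5, 2 at D7 and 3 at D10. They were 5 at D12 and 0 over D3 to D7. Over all 16842 genes tested the limit left 623, 1091, 1758, 4676, 3946 and 906 calls in the same order. From D0 to D7 it left 4 members with NanogBiD and 1 with NanogWT, beside 3171 and 2977 genes. From D0 to D12 with NanogWT it left 2, beside 2721 genes. In the D7 interaction it left 2 and from D10 to D12 with NanogBiD 0, beside 1698 and 232 genes. TPM gave 0 at D3, 3 at D7 and 3 over D3 to D7, beside 1583, 4558 and 6048 genes in all. Quantile normalization gave 4 at D7, beside 4701 genes, and the trend removed 2 at D3, beside 2228. Fitting only the groups compared gave 0 at D3 and 3 at D7. With NanogWT it gave 0 from D0 to D7 and 1 from D0 to D12. It gave 1 in the D7 interaction and 0 from D10 to D12. Genes called in all were 2321 at D7, 2778 and 2644 for the NanogWT changes and 1329 in the D7 interaction. With 2 libraries against 2 it also called 0 genes in all at D0, D1 and D3. Leaving out a library gave 0 to 1 at D3, 0 at D5, 4 to 6 at D7, 2 to 5 in the D7 interaction and 0 to 1 from D10 to D12. Of all genes called, the share that was higher went from 41.9% to 30.4% at D3 with TPM, and at D0 from 64.8% to 52.9% with quantile normalization. With the trend removed, Ehmt2 was called lower from D0 to D12 (−0.38 with NanogBiD, −0.46 with NanogWT), as was Kdm3b from D0 to D7 with NanogWT (−0.49). The causes were not tested.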
